A study of Mus musculus with 18 samples.

Results

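The extracellular proteases examined here were the matrix metalloproteinases (MMPs), the ADAMs, the ADAMTS enzymes and the ADAMTS-like proteins, together with the tissue inhibitors of metalloproteinases (TIMPs). Genes were chosen by name alone, as single gene names beginning with Mmp, Timp, Adam or Adamts that had a row in all 3 deposited tables, and Mmp8 and Mmp9 were left out. This gave 55 of the 18444 single gene names: 14 MMPs, 2 TIMPs, 16 ADAMs, 18 ADAMTS genes and 5 ADAMTS-like genes. Of these, 49 reached 0.5 FPKM (fragments per kilobase of transcript, relative to all mapped fragments) in at least 1 group, as did 16918 of all 18444 names. Timp1 and Timp3 were not analysed here.

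Transcript levels came from bulk RNAseq of dorsal spinal cord at L3–5, taken from mice 3 months of age, with the strain given as C57BL/6 in the labels and as C57BL/6N in the study's methods. All mice carried a recombinant adeno-associated virus (rAAV) injected into the spinal cord, with 3 kinds of cargo. Control mice received LacZ, a second set received histone deacetylase 4 in its wild-type form (HDAC4 wt), and the remaining mice received HDAC4 3SA, a mutant form that cannot be exported from the nucleus. Each vector had a group with intraplantar saline and a group with intraplantar Complete Freund's adjuvant (CFA, an inflammatory stimulus), and tissue was taken 24 h later. Each of the 6 groups held 3 individual mice, 18 in all, and no group lacked the spinal virus injection. The study describes the transgenes as expressed in dorsal horn neurons, while the tissue sequenced holds every cell type of the dorsal cord. The sex of single mice was not given in the labels.

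MMPs are zinc enzymes that cut collagens, laminins and other matrix proteins, are made as inactive precursors, and are blocked at the active site by TIMPs. ADAMs are mostly anchored in the membrane, where the active ones release the outer parts of other membrane proteins, among them cytokines, growth factors and Notch. ADAMTS enzymes are secreted, bind the matrix through thrombospondin repeats and cut, among others, the chondroitin sulphate proteoglycans of the nets around neurons, whereas the ADAMTS-like proteins resemble them without a protease domain. In the spinal cord, glia, vessel cells, meninges and infiltrating leukocytes are known sources of many of these enzymes.

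The tables hold 1 pooled FPKM value per group, so no spread over mice could be computed and no difference was tested. A member is called higher or lower where its log2 difference, CFA minus saline, on the log2(FPKM + 0.1) scale passed 0.5, which is a fold call without a replicate check. This scale understates changes of genes with low levels. The same call over all 16918 names at the minimum level is given as the background. In bulk tissue, fewer cells of a type and less RNA per cell cannot be told apart.

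Promoter sequences are shown for the members that rose after CFA in the HDAC4 3SA group, reached 1 FPKM in a group and had a RefSeq entry, because HDAC4 3SA had more calls after CFA than either other vector. They stand for 3 of the 10 members called there. They are Adam8, Mmp12 with 2 start sites, and Adam17, each as 250 bases before to 50 bases after the start site on GRCm38.p6, 5′ to 3′ on the strand of the gene. Capitals mark the AP-1 motif TGANTCA, which reads the same way on both strands.
Adam8, chr7:139992513-139992812, minus strand: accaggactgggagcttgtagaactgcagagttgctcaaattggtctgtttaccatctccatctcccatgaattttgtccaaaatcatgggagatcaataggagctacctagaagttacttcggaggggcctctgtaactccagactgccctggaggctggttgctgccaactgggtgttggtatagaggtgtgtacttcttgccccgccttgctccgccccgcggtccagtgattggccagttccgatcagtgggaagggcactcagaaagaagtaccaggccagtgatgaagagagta
Mmp12, first start site, chr9:7344147-7344446, plus strand: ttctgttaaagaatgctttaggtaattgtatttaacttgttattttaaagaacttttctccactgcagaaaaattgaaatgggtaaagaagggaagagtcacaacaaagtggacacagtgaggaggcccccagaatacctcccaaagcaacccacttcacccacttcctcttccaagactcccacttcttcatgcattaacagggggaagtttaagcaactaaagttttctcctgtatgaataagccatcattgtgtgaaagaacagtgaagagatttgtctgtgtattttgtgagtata
Mmp12, second start site, chr9:7347124-7347423, plus strand: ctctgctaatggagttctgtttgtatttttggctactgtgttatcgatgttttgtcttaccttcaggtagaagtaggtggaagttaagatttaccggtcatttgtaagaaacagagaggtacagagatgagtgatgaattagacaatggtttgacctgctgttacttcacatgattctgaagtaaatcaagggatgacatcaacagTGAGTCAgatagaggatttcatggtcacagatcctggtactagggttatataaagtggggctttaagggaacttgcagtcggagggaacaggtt
Adam17, chr12:21373583-21373882, minus strand: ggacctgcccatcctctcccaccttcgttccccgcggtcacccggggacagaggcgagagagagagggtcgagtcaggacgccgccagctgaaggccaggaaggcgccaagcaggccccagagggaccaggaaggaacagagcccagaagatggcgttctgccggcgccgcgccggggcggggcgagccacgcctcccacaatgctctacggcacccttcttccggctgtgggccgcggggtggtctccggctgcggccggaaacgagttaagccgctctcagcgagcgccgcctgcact
The row of Mmp12 in the tables begins at position 7347399 of chromosome 9, beside the second start site at 7347374, and the AP-1 motif there begins at base -44 from the start. The promoters of Adam8 and Adam17 held no match to AP-1, NF-kB or MEF2, and that of the first Mmp12 start site held 1 NF-kB match. Of the 55 members, 33 had a RefSeq promoter. AP-1 motifs were found in 3 of these (Adam19, Mmp12 and Mmp3), against 8.97% of all genes with a promoter entry. NF-kB matches were found in 6 of the 33, against 9.55% of genes, and MEF2 matches in 0 of the 33, against 3.70% of genes. A match is a description of letters in this window, and binding was not measured.

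Levels differed widely between the members, and the inhibitor Timp2 stood above every protease. Timp2, which blocks MMPs and also takes part in the activation of Mmp2, was at 191 FPKM in LacZ saline, 201 in LacZ CFA, 210 in HDAC4 wt saline, 209 in HDAC4 wt CFA, 213 in HDAC4 3SA saline and 218 in HDAC4 3SA CFA. Its log2 differences, CFA minus saline, were 0.08, -0.01 and 0.04 in LacZ, HDAC4 wt and HDAC4 3SA. Timp4, an inhibitor with a narrower tissue distribution, was at 10.8 and 11.2 FPKM in LacZ saline and CFA, 8.69 and 9.45 in HDAC4 wt, and 9.01 and 8.44 in HDAC4 3SA. Neither inhibitor was called in any vector. The row of Timp4 spans 115127534 to 115284467 on chromosome 6, beyond the annotated gene at 115241892 to 115252205.

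Summed over members at the minimum level, the 2 TIMPs held 202 to 227 FPKM in the 6 groups, the 14 MMPs 53.6 to 73.3, the 14 ADAMTS genes 46.8 to 58.7, and 13 ADAMs without Adam32 159 to 172. The abundant ADAMs were Adam23, Adam10, Adam9, Adam11 and Adam22, and the abundant MMPs were the membrane-type Mmp15 and Mmp14. At the other end, Adamts18, Adam15, Adam3, Adamts14, Adamts7 and Adamts8 stayed below the minimum, with a highest group value of 0.301 FPKM for Adamts18 and 0.461 for Adamts8. Just inside it were Adam18 at 0.501, Mmp25 at 0.509, Mmp3 at 0.512 and Adam5 at 0.521.

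**Figure D1:**
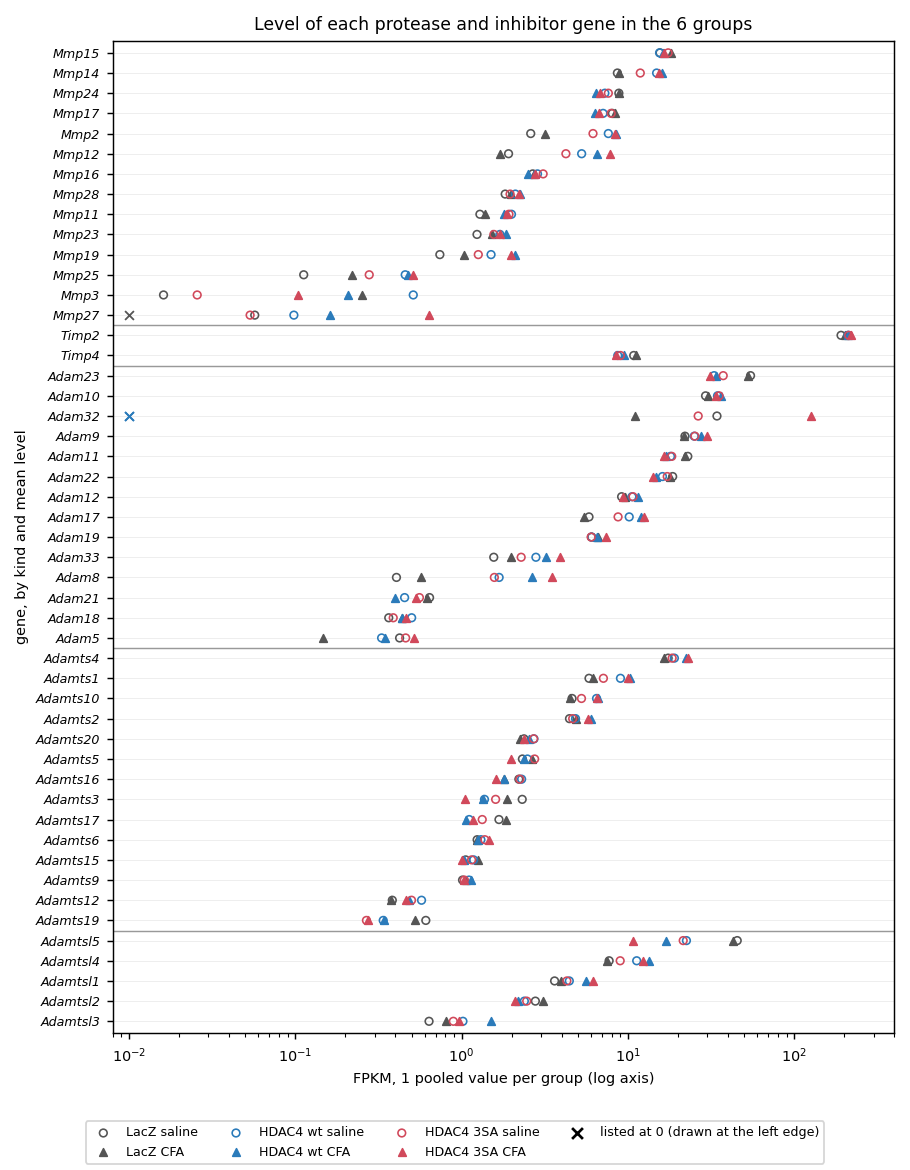
FPKM (log axis) of the 49 members at the minimum level, 1 pooled value per group, ordered by kind of gene and mean level. Open circles are saline, filled triangles CFA, and crosses at the left edge are values listed at 0. Timp2 sits at 191 to 218 in all 6 groups, while Adam32 runs from 0 to 125.

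CFA was set against saline within each vector to ask whether the protease genes moved with hindpaw inflammation. In LacZ mice, 2 of 49 members (4.08%) were called higher, against a background of 5.48%, and 3 (6.12%) were called lower, against 3.03%. All 5 were low or partial rows: Mmp25 and Mmp3 were higher, and Adam32, Adam5 and Mmp27 were lower, the last against a CFA value listed at 0. In HDAC4 wt mice, Adam8 and Adamtsl3 were called higher (4.08%, background 5.76%) and Mmp3 lower (2.04%, background 3.95%). In HDAC4 3SA mice, 10 members (20.4%) were called higher, against a background of 10.2%, and 2 (4.08%) lower, against 3.82%. Of the 10, Mmp25 and Mmp27 reached the minimum only in HDAC4 3SA with CFA, the group where they were high, and Mmp3 only in HDAC4 wt saline, so the filter itself admitted them. Where the mean over the 6 groups had to reach 0.5 FPKM, 7 of 42 members (16.7%) were called higher, against a background of 8.88%.

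Over the 49 members the median log2 differences of LacZ, HDAC4 wt and HDAC4 3SA were 0.05, 0.04 and 0.07, beside 0.01, 0.00 and 0.02 over all names. The middle of the families therefore lay near 0 in each vector. In HDAC4 3SA the upper quartile of the members was 0.44 and that of all names 0.19, with Mmp25, Mmp27 and Mmp3 among the 49. In LacZ and HDAC4 wt the upper quartiles of the members were 0.14 and 0.16, beside 0.12 and 0.13. With the mean over the groups at 0.5 FPKM or more, the median of 42 members in HDAC4 3SA was 0.02, beside 0.01 over all names, and the upper quartile 0.36, beside 0.18. The shares of members above 0 were 61.2%, 57.1% and 55.1%, beside 53.1%, 51.3% and 53.4% of all names.

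**Figure D2:**
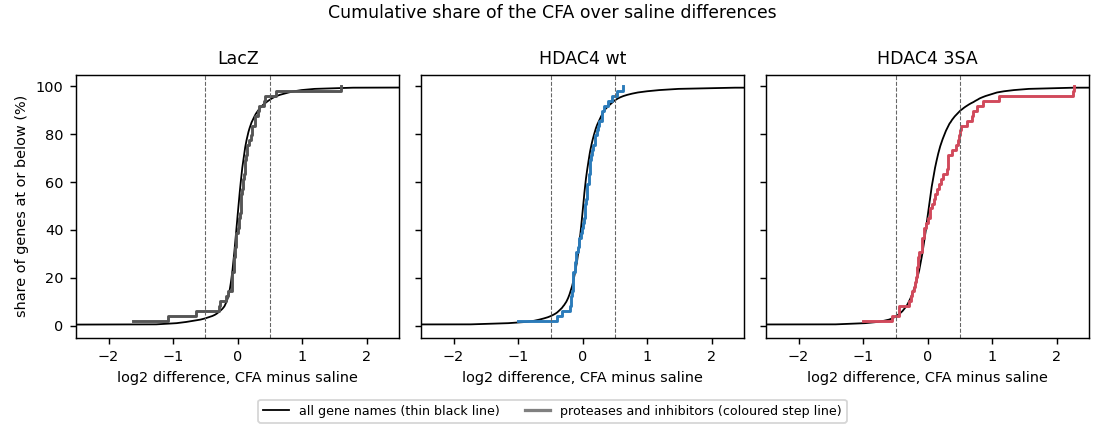
Cumulative share of genes (%) against the log2 difference, CFA minus saline, for all 16918 names (thin black line) and the 49 members (coloured step line), with dashed lines at the fold call. In HDAC4 3SA the members' line runs to the right of the line for all names above 0, and 20.4% of members lie past the upper dashed line.

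Among the secreted MMPs, 4 of 7 were called higher in HDAC4 3SA, with a median of 0.61, while 1 of 7 was called in that direction in LacZ and 0 of 7 in HDAC4 wt, beside 10.2%, 5.48% and 5.76% of all names. The count and the median lean on Mmp3 and Mmp27, which passed the minimum in 1 group each. With the mean over the groups at 0.5 FPKM or more, 2 of 5 secreted MMPs (Mmp12 and Mmp19) were called in HDAC4 3SA, with a median of 0.44. The share of all names called higher there with that minimum was 8.88%. Mmp12, the macrophage elastase, was at 1.92 FPKM in LacZ saline and 1.71 in LacZ CFA, 5.27 and 6.48 in HDAC4 wt, and 4.24 and 7.77 in HDAC4 3SA. Its level rose 1.83-fold in HDAC4 3SA (log2 difference 0.86), beside 0.29 in HDAC4 wt and -0.16 in LacZ, where the CFA value was below the saline value. Both HDAC4 vectors were above both LacZ groups.

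Mmp19, which cuts basement membrane proteins, was at 0.740 and 1.03 FPKM in LacZ saline and CFA, 1.5 and 2.1 in HDAC4 wt, and 1.26 and 1.98 in HDAC4 3SA. The CFA value was above the saline value in each vector, by 0.43, 0.45 and 0.61 on the log2 scale, so the 3 vectors differ little and HDAC4 3SA alone passed the call. The row of Mmp19 (chromosome 10, 128790837 to 128817507) reaches past the annotated end at 128800824.

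The other secreted MMPs called higher in HDAC4 3SA were near the minimum level. Mmp3 (stromelysin 1) was at 0.0161 and 0.252 FPKM in LacZ, 0.512 and 0.207 in HDAC4 wt, and 0.0257 and 0.104 in HDAC4 3SA, so it was called higher in LacZ and HDAC4 3SA and lower in HDAC4 wt. Mmp27 was at 0.0571 and 0 in LacZ, 0.0981 and 0.161 in HDAC4 wt, and 0.0535 and 0.637 in HDAC4 3SA, and its row covers 13.9% of the annotated exon bases. These levels are so low that the calls rest on a small part of an FPKM. Mmp2 (gelatinase A) was at 2.60 and 3.15 FPKM in LacZ, 7.62 and 8.52 in HDAC4 wt, and 6.17 and 8.41 in HDAC4 3SA, with log2 differences of 0.27, 0.16 and 0.44 that did not pass the call. Mmp11 and Mmp28 were between 1.29 and 2.25 FPKM, and neither was called.

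The 6 membrane-type MMPs moved less, with medians of 0.04, -0.05 and -0.12 in LacZ, HDAC4 wt and HDAC4 3SA. Mmp15 was at 15.6 and 18.1 FPKM in LacZ, 15.5 and 16.2 in HDAC4 wt, and 17.4 and 16.4 in HDAC4 3SA. Mmp14, which activates the precursor of Mmp2 at the cell surface, was at 8.64 and 8.85 FPKM in LacZ, 14.9 and 16.1 in HDAC4 wt, and 11.9 and 15.5 in HDAC4 3SA, where its log2 difference of 0.38 was below the call. Only Mmp25, a membrane-anchored enzyme of leukocytes, was called among these 6, higher in LacZ and HDAC4 3SA, beside 5.48% and 10.2% of all names. It was at 0.112 and 0.220 FPKM in LacZ (0.59), 0.458 and 0.477 in HDAC4 wt (0.05) and 0.278 and 0.509 in HDAC4 3SA (0.69). Mmp25 reached the minimum only in HDAC4 3SA with CFA, the group where it was high. Mmp16, Mmp17 and Mmp24 were all lower after CFA in both HDAC4 vectors, by log2 differences of -0.15 to -0.25, and Mmp23, an MMP of unusual domain make-up, was at 1.24 to 1.84 FPKM without a call.

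Of the 7 ADAMs known to shed membrane proteins, 3 were called higher in HDAC4 3SA, 1 in HDAC4 wt and 0 in LacZ, beside 10.2%, 5.76% and 5.48% of all names. The role groups were formed after the values were known, so these counts describe the members and support no more. Adam8, which is known from leukocytes and activated microglia, was at 0.406 and 0.572 FPKM in LacZ saline and CFA, 1.68 and 2.65 in HDAC4 wt, and 1.57 and 3.51 in HDAC4 3SA. It rose 1.57-fold in HDAC4 wt (0.63) and 2.23-fold in HDAC4 3SA (1.11), and the LacZ value of 0.41 had the same sign without passing the call. The 4 groups of the HDAC4 vectors were all above both LacZ groups.

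Adam17, the enzyme that releases tumour necrosis factor from cells, was at 5.83 and 5.48 FPKM in LacZ, 10.2 and 11.9 in HDAC4 wt, and 8.72 and 12.5 in HDAC4 3SA. Its rise of 1.43-fold in HDAC4 3SA lay just past the call (0.51), beside 0.22 in HDAC4 wt and -0.09 in LacZ. Adam33 was at 1.56 and 1.99 FPKM in LacZ (0.33), 2.80 and 3.20 in HDAC4 wt (0.19), and 2.28 and 3.93 in HDAC4 3SA, where it rose 1.72-fold (0.76). The 3 genes thus had their highest value in the same group, HDAC4 3SA with CFA.

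Adam10, the main enzyme that starts Notch cleavage and a known alpha-secretase, kept a narrow range from 29.3 FPKM in LacZ saline and 30.5 in LacZ CFA to 34.6 and 36.3 in HDAC4 wt and 35.3 and 33.9 in HDAC4 3SA. Adam9 was at 22.0 and 21.7 FPKM in LacZ, 25.1 and 27.6 in HDAC4 wt, and 25.3 and 29.9 in HDAC4 3SA. Neither was called, nor were Adam12 and Adam19. Adam12 was between 9.16 and 11.4 FPKM. The identifier of Adam19 points to places that do not overlap between the tables, and the place in the LacZ table covers 43.6% of its exon bases, so its levels of 6.01 to 7.37 FPKM are uncertain across vectors.

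The neuronal ADAMs that lack protease activity, Adam11, Adam22 and Adam23, were lower after CFA in all 3 vectors except for Adam23 in HDAC4 wt (0.03), and none was called. Adam22 and Adam23 are synaptic receptors for the secreted LGI proteins. Adam23 was at 54.6 and 52.6 FPKM in LacZ, 33.0 and 33.6 in HDAC4 wt, and 37.4 and 31.3 in HDAC4 3SA (-0.26). Adam22 was at 18.6 and 17.8, 16.1 and 14.8, and 17.2 and 14.1 FPKM in the same order (-0.29 in HDAC4 3SA), and Adam11 at 22.9 and 22.1, 18.03 and 16.8, and 18.3 and 16.6 (-0.14). Their summed level was 96.1 and 92.6 FPKM in LacZ, 67.1 and 65.3 in HDAC4 wt, and 73.0 and 62.0 in HDAC4 3SA.

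The ADAMs known mainly from the testis gave calls that rest on small pieces of the genes. The row of Adam32 covers 5 kb of chromosome 8 (24916333 to 24921339) and 21.0% of the exon bases, and was at 34.3 and 11.0 FPKM in LacZ, 0 and 0 in HDAC4 wt, and 26.4 and 125 in HDAC4 3SA. It was called lower in LacZ (-1.63) and higher in HDAC4 3SA (2.24), and is listed at 0 in HDAC4 wt. A listed 0 can be a failed estimate, so calls that rest on one are uncertain. Adam5, whose row covers 24.9% of the exon bases, was at 0.424 and 0.147 FPKM in LacZ and between 0.330 and 0.521 in the other groups. Adam18 and Adam21 were between 0.365 and 0.642 FPKM without a call.

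**Figure D3:**
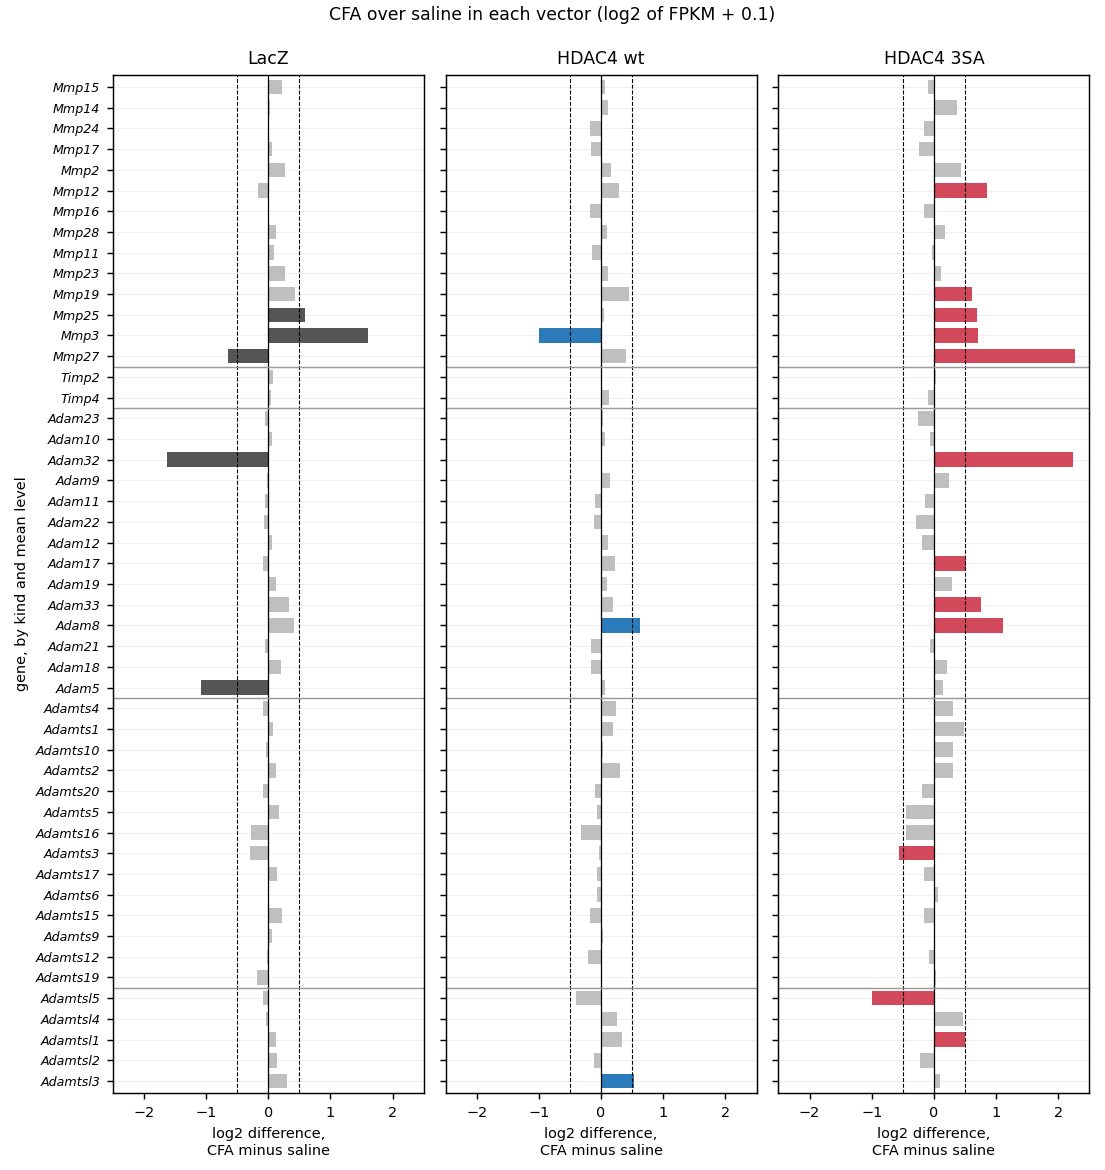
Log2 difference, CFA minus saline, of each of the 49 members in LacZ, HDAC4 wt and HDAC4 3SA, on the log2(FPKM + 0.1) scale. Coloured or dark bars passed the fold call (dashed lines), grey bars did not. The HDAC4 3SA panel has 10 bars past the upper line, against 2 in each of the other panels.

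None of the 6 ADAMTS genes known to cut the lectican proteoglycans was called in any vector. The most abundant was Adamts4, an aggrecanase, at 17.5 and 16.4 FPKM in LacZ, 19.02 and 22.4 in HDAC4 wt (0.23), and 18.4 and 22.8 in HDAC4 3SA (0.31). The row of Adamts4 (chromosome 1, 171234850 to 171262288) reaches past the annotated gene at 171250421 to 171260637. Its level, and the summed level below that holds it, are therefore uncertain. Adamts1 came nearest to the call, at 7.12 and 10.0 FPKM in HDAC4 3SA (0.49), and Adamts5 lay on the other side, at 2.75 and 1.99 FPKM (-0.45). The aggrecanases therefore did not share a direction. The summed level of the 6 genes was 30.1 and 29.8 FPKM in LacZ, 35.5 and 39.7 in HDAC4 wt, and 33.2 and 39.3 in HDAC4 3SA. Adamts9, Adamts15 and Adamts20 were between 1.01 and 2.72 FPKM.

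Adamts3, which trims procollagen and helps to activate a lymphatic growth factor, was at 2.31 and 1.87 FPKM in LacZ (-0.29), 1.37 and 1.34 in HDAC4 wt (-0.03), and 1.602 and 1.05 in HDAC4 3SA, where it fell by 0.56 on the log2 scale. Its highest value was that of LacZ saline and its lowest that of HDAC4 3SA with CFA. The related Adamts2 was at 4.45 to 6.00 FPKM, with log2 differences of 0.13, 0.30 and 0.31. Adamts16 was lower after CFA in each vector, by -0.27, -0.33 and -0.44, without passing the call. Adamts6, Adamts10, Adamts12, Adamts17 and Adamts19 were not called either. The identifier of Adamts19 points in the HDAC4 wt table to a place that does not overlap that in the other tables.

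The ADAMTS-like proteins, several of which bind fibrillin microfibrils, held 5 members at the minimum level. Of these, LacZ had 0 called higher, beside 5.48% of all names, HDAC4 wt 1, beside 5.76%, and HDAC4 3SA 1, beside 10.2%, and 1 was called lower in HDAC4 3SA, beside 3.82%. Adamtsl1 was at 3.62 and 3.94 FPKM in LacZ (0.12), 4.44 and 5.62 in HDAC4 wt (0.33), and 4.29 and 6.13 in HDAC4 3SA, just past the call at 0.50. Adamtsl3 was at 0.637 and 0.811 FPKM in LacZ (0.31), 1.02 and 1.51 in HDAC4 wt, where it rose 1.48-fold (0.52), and 0.892 and 0.963 in HDAC4 3SA (0.10). Adamtsl4 was at 7.71 and 7.52, 11.3 and 13.4, and 8.98 and 12.4 FPKM, with 0.46 in HDAC4 3SA below the call, and Adamtsl2 was between 2.10 and 3.07 FPKM.

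Adamtsl5 was called lower in HDAC4 3SA, but on a row whose strand differs from that of the gene. That row was at 45.4 and 42.6 FPKM in LacZ, 22.5 and 16.9 in HDAC4 wt, and 21.5 and 10.7 in HDAC4 3SA (-1.003). The libraries were strand-specific, and the order of the identifiers places this row in the plus-strand block of chromosome 10, while Adamtsl5 is annotated on the minus strand. The row of the same place in the minus-strand block was at 3.47 and 3.99, 2.90 and 2.91, and 3.14 and 2.45 FPKM, with -0.35 in HDAC4 3SA, and did not pass the call. The level and change of Adamtsl5 are therefore uncertain.

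**Figure D4:**
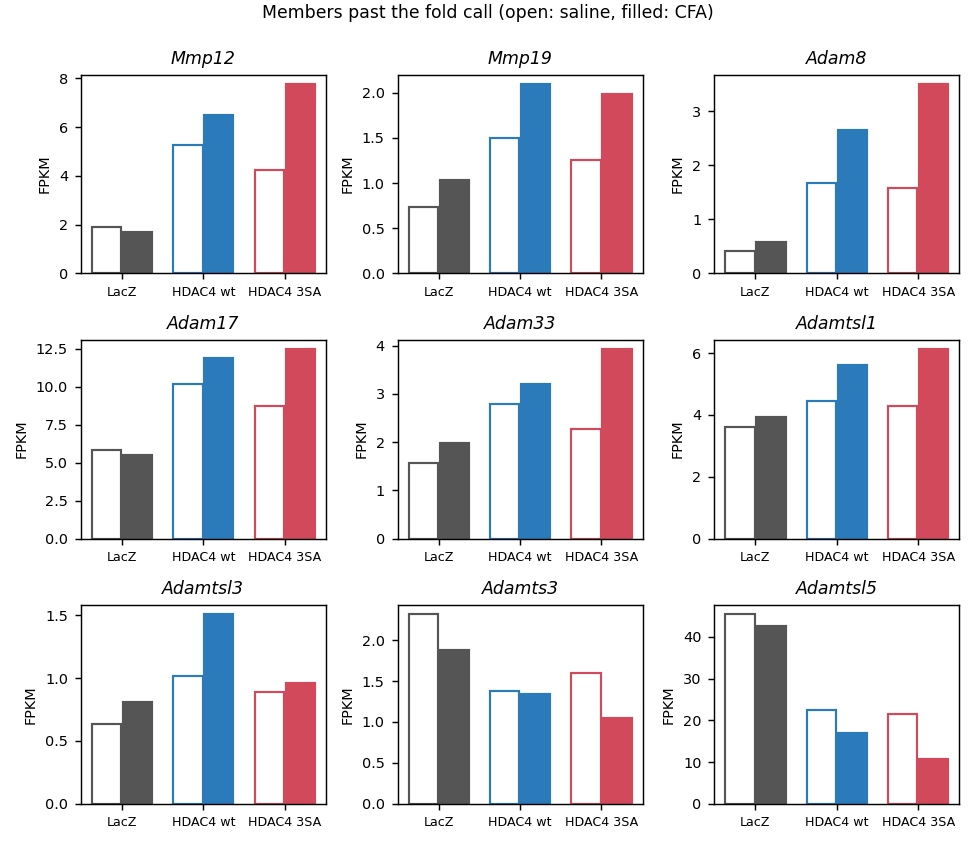
FPKM of the 9 members that reached 1 FPKM in a group and passed the fold call in at least 1 vector, leaving out Adam32, 1 pooled value per bar, open for saline and filled for CFA. Mmp12, Adam8, Adam17, Adam33 and Adamtsl1 have their highest bar in HDAC4 3SA with CFA, and Adamts3 and Adamtsl5 their lowest.

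The vectors share no control samples, so the members' responses could be read side by side. The CFA minus saline differences of HDAC4 wt and HDAC4 3SA had the same sign in 38 of the 49 members (77.6%), beside 69.7% of all names. LacZ and HDAC4 wt had the same sign in 26 of 49 members (53.1%, beside 56.0% of all names), and LacZ and HDAC4 3SA also in 26 (53.1%, beside 59.3%). Of the 10 members called higher in HDAC4 3SA, 8 were above 0 in HDAC4 wt and 6 in LacZ. These are counts over genes of the same pooled libraries, which are not independent replicates, and the difference between vectors was not tested.

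The members' saline levels already differed between the vectors. Each vector was normalized in its own run, so these values are a description. Against LacZ saline, 13 of 49 members (26.5%) were called higher in HDAC4 wt saline, beside 17.4% of all names, and 6 (12.2%) lower, beside 6.32%. Of the 13, Mmp3 reached the minimum only in HDAC4 wt saline, the group where it was called higher. Of the 6, Adam32 was counted on a listed 0, Adamts19 on places that do not overlap between these tables, and Adamtsl5 on the row of the other strand. On the row of its own strand Adamtsl5 differed from LacZ saline by -0.25 in HDAC4 wt and -0.14 in HDAC4 3SA, which is no call in either. With that row, and without members listed at 0 or at different places, 3 of 45 (6.67%) were lower in HDAC4 wt saline, a share near the background. In HDAC4 3SA saline, 8 members (16.3%) were called higher, beside 14.2%, and 4 (8.16%) lower, beside 4.86%. Of the 4, Adamts19 reached the minimum only in the LacZ groups, where it was high, and with the own-strand row of Adamtsl5 3 of 49 (6.12%) were lower. Where the mean over the 6 groups had to reach 0.5 FPKM, 11 of 42 members (26.2%) were higher in HDAC4 wt saline, beside 15.9%, and 7 (16.7%) in HDAC4 3SA saline, beside 12.8%. With the same minimum 5 (11.9%) and 3 (7.14%) were lower, beside 5.67% and 4.22%, counts that still hold Adamtsl5 on the other strand and, in HDAC4 wt, Adam32. Both comparisons share the LacZ saline mice, so they are not independent of each other, and the values of each are given side by side.

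In HDAC4 wt saline the members called higher were Adam8, Adam17, Adam33, Adamts1, Adamtsl3, Adamtsl4, Mmp2, Mmp3, Mmp11, Mmp12, Mmp14, Mmp19 and Mmp25, and those called lower were Adam23, Adam32, Adamts3, Adamts17, Adamts19 (at different places) and Adamtsl5 (on the row of the other strand). In HDAC4 3SA saline they were Adam8, Adam17, Adam33, Mmp2, Mmp11, Mmp12, Mmp19 and Mmp25, and Adam23, Adamts3, Adamts19 and, on that same row, Adamtsl5. Adam8 was 4.14-fold above LacZ in HDAC4 wt (log2 difference 1.82) and 3.88-fold above it in HDAC4 3SA (1.73). The same ratios were 2.93 and 2.37 for Mmp2 and 2.75 and 2.21 for Mmp12, whereas Adam23 was at 0.604 and 0.685 of its LacZ level. Adam8, Mmp2 and Mmp12 thus had a lower level in LacZ saline than in either other saline group, and Adam23 a higher one.

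**Figure D5:**
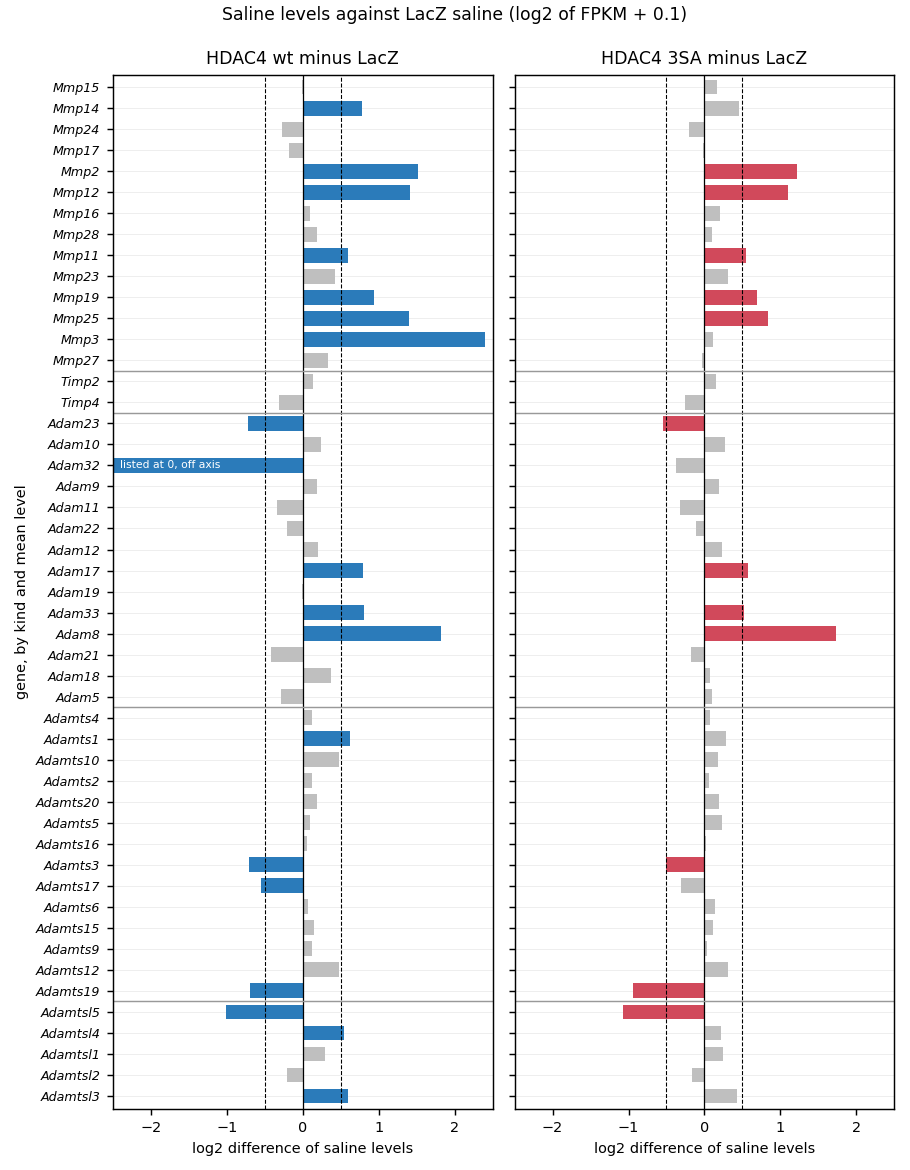
Log2 difference of the saline level of each of the 49 members from LacZ saline, for HDAC4 wt and HDAC4 3SA, with dashed lines at the fold call and grey bars inside it. Both panels use the same LacZ saline value. The Adam8 bars reach 1.82 and 1.73, and Adam32, listed at 0 in HDAC4 wt, runs off the axis there. The Adamtsl5 bars are those of the row on the other strand.

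Markers of other cell types moved beside these members. The summed level of 10 microglia markers was 181 FPKM in LacZ saline and 207 in LacZ CFA, 994 and 1258 in HDAC4 wt, and 750 and 1396 in HDAC4 3SA. In HDAC4 3SA 8 of the 10 were called higher after CFA, with a median of 0.79, beside 10.2% of all names, and none was in the other vectors. The summed level of 8 neuron markers was 1782 and 1670 FPKM in LacZ, 1266 and 1124 in HDAC4 wt, and 1337 and 1008 in HDAC4 3SA. Snap25 was the largest part, at 1227 FPKM in LacZ saline, 795 in HDAC4 wt saline and 861 in HDAC4 3SA saline. In the same order Rbfox3 was at 71.6, 68.0 and 73.7 FPKM and Syt1 at 86.2, 90.8 and 84.6. The other markers of this list were lower in both HDAC4 saline groups than in LacZ saline.

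Markers of cells outside the cord also differed between groups. Neutrophil markers went from a summed 11.2 FPKM in LacZ saline to 113 in LacZ CFA, while they were at 41.4 and 28.9 in HDAC4 wt and 62.1 and 38.6 in HDAC4 3SA. Schwann cell markers were at 779 and 1209 FPKM in LacZ, 787 and 762 in HDAC4 wt, and 1069 and 645 in HDAC4 3SA. Skeletal muscle markers were at 19.5 and 41.2 FPKM in LacZ, where 5 of 6 were called higher after CFA (5.48% of all names), at 8.57 and 4.33 in HDAC4 wt, where 5 of 6 were called lower (3.95% of all names), and at 64.5 and 56.7 in HDAC4 3SA, with 1 lower. The gene Hdac4 itself was at 7.41 and 7.72 FPKM in LacZ, 10.1 and 10.8 in HDAC4 wt, and 8.86 and 8.81 in HDAC4 3SA, and whether reads of the transgene count into that row was not given in the sources used here. Of the other lists, 5 of 5 ependymal markers were called lower after CFA in LacZ, beside 3.03% of all names, where their sum went from 17.6 to 6.41 FPKM, and 1 higher in each HDAC4 vector. Meningeal fibroblast markers summed to 162 to 220 FPKM, and CFA brought calls of higher level to 3 of 10 in the LacZ mice and to 2 in the HDAC4 wt mice, with 0 for HDAC4 3SA, beside 5.48%, 5.76% and 10.2% of all names. Oligodendrocyte markers summed to 1588 to 3215 FPKM, with 1 of 6 called lower in HDAC4 wt. Astrocyte markers summed to 879 to 1644 FPKM and endothelial markers to 61.9 to 85.1, with no call. Markers of dorsal root ganglion neurons summed to 1.21 to 10.3 FPKM, and 1 of them reached the minimum and was called higher in HDAC4 wt. Markers of the neurons and astrocytes of the cord were thus present in each group, and the part of any of these cells in the members' values was not tested.

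Other genes of protease control were read from 3 lists. Of 18 regulators of matrix proteases at the minimum level, 5 were called higher and 0 lower in HDAC4 3SA, 4 and 0 in HDAC4 wt, and 1 and 1 in LacZ. The background shares called higher were 10.2%, 5.76% and 5.48% in the same order. Plau (urokinase, which makes plasmin from plasminogen) was at 1.44 and 1.66 FPKM in LacZ, 17.0 and 19.7 in HDAC4 wt, and 12.5 and 28.5 in HDAC4 3SA, where its log2 difference was 1.19. Its receptor Plaur was called higher in LacZ (0.70) and in HDAC4 3SA (0.80). The protease inhibitor genes Tfpi2 (0.73 and 1.10) and Serpinf2 (0.87 and 0.98) were called higher in HDAC4 wt and HDAC4 3SA. Serpinf2 was also the gene called lower in LacZ (-0.54), at 0.0745 and 0.0201 FPKM. It reached the minimum only in HDAC4 wt with CFA (0.538), and Spock1 was also called higher in HDAC4 wt (1.65). Plau and these inhibitors thus rose in the same vector, the inhibitors from low levels.

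The membrane-bound MMP inhibitor Reck was at 2.98 to 4.01 FPKM, and Furin, a convertase that removes the propeptide of many of these enzymes, at 7.41 to 10.0. Neither was called. Among 12 genes of the lectican matrix, 1 was called higher and 1 lower in HDAC4 3SA, beside 10.2% and 3.82% of all names, and 0 in the other vectors. These counts set nothing apart about the list. Tnc (tenascin C) was at 1.57 and 2.92 FPKM in HDAC4 3SA (0.85), and Hapln1, a link protein of perineuronal nets, at 4.20 and 2.76 (-0.59). Acan, the aggrecan gene, was at 3.39 and 3.19 FPKM in LacZ, 1.82 and 1.95 in HDAC4 wt, and 2.51 and 2.05 in HDAC4 3SA.

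Among 11 partners of ADAMs at the minimum level, Rhbdf2 alone was called, higher in LacZ and in HDAC4 3SA, beside 5.48% and 10.2% of all names. Rhbdf2 (iRhom2), which carries Adam17 to the cell surface, was at 0.762 and 1.17 FPKM in LacZ (0.56), 2.49 and 3.00 in HDAC4 wt (0.26), and 2.08 and 3.06 in HDAC4 3SA (0.53). Lgi1, a ligand of Adam22 and Adam23, was at 33.4 and 32.1 FPKM in LacZ, 30.8 and 27.9 in HDAC4 wt, and 31.4 and 24.9 in HDAC4 3SA, and was not called. Its relative Lgi2 was at 60.8 and 58.5, 40.6 and 38.5, and 45.3 and 36.4 FPKM.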

How the data were processed

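RNA of the dorsal spinal cord (L3–L5) of 18 mice, 3 per group, was sequenced by the authors as strand-specific poly-A libraries. Per the labels and the paper, reads were mapped with TopHat and Bowtie to mm10/GRCm38 and levels were estimated with Cufflinks and Cuffdiff. The authors deposited 1 table per vector, 3 in all, each with 34579 loci and 1 FPKM value per group over its mice. The tables also hold the authors' log2 fold changes, test statistics, p-values and q-values, which were not used. The tables give neither read counts nor values per mouse. The study's methods state a minimum number of reads per library, but not the total of each, so the precision of a value could not be computed. The design had foreseen tests on such values, and none was run.

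Rows were matched by identifier. For 386 identifiers the places in the tables do not overlap. Per gene name, the row with the highest mean FPKM over the 6 groups was kept. Changes are log2(FPKM + 0.1), CFA minus saline, with a call beyond 0.5 and a minimum of 0.5 FPKM in a group, computed with Python 3.11.15, numpy 2.4.6 and pandas 2.3.3, tested on simulated data. Strand blocks were read from the order of the identifiers, which gave the GENCODE M21 strand for 98.6% of 13230 single-row genes. Start positions are 1-based.

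Named with all values by rule were the TIMPs, the 12 most abundant members, and at most 20 members of at least 1 FPKM that passed the call. Other members were named after their values were seen, to account for each of them. The role groups were likewise formed after the values were known. The members and lists were chosen with earlier results of these data known. The marker lists hold 82 genes in 11 lists. Results were recomputed under 10 other settings and 2 more chosen after seeing the data, the row on the gene's own strand and leaving out members listed at 0. The latter was also applied to the saline levels, as were leaving out identifiers at different places and the row on the gene's own strand, and the minimum on the mean to the saline levels, the quartiles and the role groups, again after seeing the data. Promoters are from RefSeq (GRCm38.p6). Single results of some genes of the lists are not reported here.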

Additional observations from a re-analysis of the deposited data

How the results depend on the processing

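No paired analysis was possible because the tables hold 1 value per group and the columns carry no replicate number, and for the same reason no replicate could be left out. Under the alternatives, 105 counts and medians were recomputed. Of these, 83 stayed within a factor of 1.5 (counts) or within 0.1 (medians) of the reported value. The other 22, all of them counts, moved further. The reported medians of 0.05, 0.04 and 0.07 are themselves below 0.1, so medians near 0 could hardly pass that bound. The 83 include the count of members called higher in HDAC4 3SA, which went from 10 to 7 with a mean of 0.5 FPKM and with a minimum of 1 FPKM in a group. Of 315 values of single named members, 305 kept their side of the call, 9 lost it and 1 gained it. The reported counts of members called higher and lower were 2 and 3 in LacZ, 2 and 1 in HDAC4 wt, and 10 and 2 in HDAC4 3SA. With 1 FPKM added in place of 0.1 they became 0 and 1 in LacZ, 0 and 0 in HDAC4 wt, and 5 and 1 in HDAC4 3SA, and Adam17, Mmp19, Adamtsl1 and Adamts3 lost their calls in HDAC4 3SA and Adam8 and Adamtsl3 theirs in HDAC4 wt. With a log2 difference beyond 1, LacZ had 1 higher, HDAC4 wt 0 and 0, and HDAC4 3SA 3 and 1. The 3 were Adam8 and the partial rows of Adam32 and Mmp27, and the 1 was Adamtsl5 on the row of the other strand. Of all names, 0.97 lay at or below 1.01 in HDAC4 3SA. For the CFA counts under the other settings, a share of all names was computed only for those higher in HDAC4 3SA with the mean of 0.5 FPKM. LacZ had 0 higher and 1 lower with a minimum of 1 FPKM in a group, with 0.5 FPKM in a group of that vector, and with a mean of 0.5 FPKM. HDAC4 wt had 0 lower with the minimum of 1 FPKM and with the mean of 0.5 FPKM, and 2 lower with FPKM summed over the rows of a name. With the row on the gene's own strand, chosen after seeing the data, 1 member was lower in HDAC4 3SA, since Adamtsl5 no longer passed (-0.35). Without members listed at 0, also chosen after seeing the data, 1 member was lower in LacZ. Adamtsl1 in HDAC4 3SA also lost its call when centred on the median of names of at least 5 FPKM and with summed rows (0.44), and Adamtsl3 gained one in HDAC4 3SA with summed rows (0.64). Read counts per library were not used here, so the error of members below 1 FPKM could not be computed.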
